A study of Mus musculus with 2207 samples.

Results

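The genes that make, package, recover and break down GABA were examined in single cortical nuclei of mice that lack 1 copy of Ehmt1 and of their controls, Ehmt1 being the gene of the histone H3 lysine 9 methyltransferase GLP. The set held 5 genes, Gad1, Gad2, Slc32a1, Slc6a11 and Abat, chosen by symbol from the 52636 rows of the expression tables, and their levels were followed by cell type label, by pool of nuclei and together with Slc17a7 in the same nucleus. Cortical nuclei of C57BL/6 mice aged 14 weeks were sorted singly into plates and their total RNA was sequenced by the RamDA-seq method, giving 2207 nuclei, of which 1664 were labelled as neurons, 397 as oligodendrocytes and the rest as microglia. All mice, 3 for each genotype, had been given tamoxifen from the age of 3 weeks, in 2 doses of 100 mg/kg that lay 1 week apart by the study's methods.

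The nuclei fell into 6 pools, each a genotype in a plate format. The 96-well plates held WT nuclei (Ehmt1+/+) and nuclei labelled Ehmt1delta/+, written Ehmt1Δ/+ here, with no transgene named. By the labels, the WT and Ehmt1Δ/+ mice of the 384-well plates both carried the inducible Ehmt1 transgene (Ehmt1 iTg) without CamKII-CreER, that is with no Cre to switch it on, whereas the study's own text places CamKII-CreER in each of the 4 genotypes of this plate format. The labels were followed, and which of the descriptions is right could not be settled from the values. The other 2 pools of the 384-well plates, iTg (Ehmt1+/+) and Ehmt1Δ/+;iTg, carried the transgene together with CamKII-CreER, a tamoxifen-inducible Cre driven by a promoter of excitatory forebrain neurons, so any supply of GLP from it was limited to the cells that use this promoter. No label tied a nucleus to a mouse, so a pool counted as 1 sample, and differences between pools may include differences between mice, days and libraries.

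GABA is the main inhibitory transmitter of the cortex. It is made from glutamate by 2 glutamate decarboxylases, GAD67 from Gad1, which fills the cell body and supplies most of the GABA, and GAD65 from Gad2, which sits at nerve endings, and it is loaded into synaptic vesicles by VGAT, the product of Slc32a1. After release it is taken up by transporters, among them GAT3 (Slc6a11, best known from astrocytes), and broken down in mitochondria by GABA transaminase, the product of Abat. Interneurons carry this machinery, whereas most excitatory cortical neurons carry Slc17a7, which encodes the vesicular glutamate transporter VGLUT1.

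By the mm10 annotation (GENCODE M21) all 5 genes lie on the plus strand. Gad1 spans chr2:70553072-70602014, Gad2 chr2:22622205-22693874, Slc32a1 chr2:158610767-158615748, Slc6a11 chr6:114131241-114249952 and Abat chr16:8513429-8621568. Gad2 is 2096054 bases from Ehmt1 on the same chromosome. An exon of Slc32a1 overlaps the antisense gene Gm14205, and the counting was not stated to use strand, so reads of the pair cannot be told apart. The deposited values of Slc32a1 were not whole reads in 38.1% of its positive entries, against 14.7% for Gad1, 22.9% for Gad2, 0.284% for Slc6a11 and 0.372% for Abat.

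The sequences before the RefSeq start site, ended where a GENCODE exon begins, are shown for the 3 genes whose levels moved together from nucleus to nucleus (Gad1, Gad2 and Slc32a1) and for Slc6a11, which did not move with them. The window of Gad1 lies inside the longer GENCODE gene. The sequences are from RefSeq (GRCm38.p6, plus strand, 5′ to 3′), where 4 of the 5 genes were matched, and capitals mark the E-box letters CANNTG, a core bound by basic helix-loop-helix factors.
Gad1, chr2:70561879-70562041: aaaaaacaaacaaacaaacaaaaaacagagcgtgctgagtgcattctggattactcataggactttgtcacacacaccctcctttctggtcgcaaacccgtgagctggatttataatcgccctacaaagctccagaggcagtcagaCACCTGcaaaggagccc
Gad2, chr2:22622077-22622204: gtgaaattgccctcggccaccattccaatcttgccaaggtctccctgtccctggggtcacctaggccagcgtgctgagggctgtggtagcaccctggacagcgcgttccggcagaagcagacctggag
Slc32a1, chr2:158610508-158610757: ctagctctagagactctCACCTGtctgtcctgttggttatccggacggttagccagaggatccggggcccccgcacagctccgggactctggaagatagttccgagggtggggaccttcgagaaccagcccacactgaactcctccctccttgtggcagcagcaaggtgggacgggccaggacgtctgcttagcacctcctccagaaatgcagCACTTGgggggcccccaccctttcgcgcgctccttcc
Slc6a11, chr6:114130991-114131240: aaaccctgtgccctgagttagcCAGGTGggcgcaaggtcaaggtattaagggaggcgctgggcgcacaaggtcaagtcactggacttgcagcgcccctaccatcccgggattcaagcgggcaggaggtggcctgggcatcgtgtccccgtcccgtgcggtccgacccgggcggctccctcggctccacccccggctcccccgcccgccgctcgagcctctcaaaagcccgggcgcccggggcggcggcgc
In the full 250 bases before each start site, CANNTG on either strand occurred 1 time in Gad1, 1 time in Gad2 (in the stretch not shown), 2 times in Slc32a1 and 1 time in Slc6a11, and 66.2% of all 32851 windows of that length held it. TAATTA, the core letters bound by homeodomain factors, was in none of the 4 windows and in 4.84% of all windows. The dinucleotide CG occurred 17 times before Gad1, 13 before Gad2, 12 before Slc32a1 and 25 before Slc6a11, against a median of 6 over all windows. All 4 windows thus held more CG than the median window, Slc6a11 the most.

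The median read total of a neuron, recovered from the deposited values, was between 323273 and 397880 in the 6 pools. Glia were deeper than neurons on 96-well plates (medians of 441701 to 510639 reads, against 343803 in WT and 352622 in Ehmt1Δ/+ neurons). On 384-well plates glia were far shallower (39940 to 54877 reads). The labels matched their markers: the 10 oligodendrocyte markers summed to 3492 to 5813 RPKM (reads per kilobase of exon, scaled to the sequencing depth of the nucleus) in oligodendrocytes and to 9.72 to 18.3 RPKM in neurons, and the 10 microglial markers to 2758 to 4470 RPKM in microglia and to 8.42 to 12.9 RPKM in neurons. Traces of neuronal genes were present in glia of the 96-well plates, most in the WT pool: Slc17a7 was above 0 in 61.6% of WT and 35.2% of Ehmt1Δ/+ oligodendrocytes there, and in 15.2% to 26.9% of oligodendrocytes of the 384-well pools. Ehmt1 itself was 31.2, 31.7 and 33.9 RPKM in neurons of the 3 pools labelled with the deletion and 18.7, 19.5 and 20.7 RPKM in those without it, so its level per gene was higher, not lower, under the deletion label. Values per gene do not separate the deleted part from the rest, so the genotype labels could not be checked by them, and Ehmt1Δ/+ below means the pools so labelled.

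Gad1, Gad2, Slc32a1 and Slc6a11 were higher in nuclei labelled as neurons than in glia in every pool, and Abat in every pool but Ehmt1Δ/+ 384-well. Because the labels were set from the same values, the levels by cell type are given as a description. Gad1 had the highest mean of the 5 in neurons, 12.97 ± 3.25 RPKM (SD, n = 6 pools), and it exceeded Gad2 in each of the 6 pools. Gad2 followed at 9.29 ± 3.03 RPKM, Slc32a1 at 7.50 ± 2.31 RPKM and Abat at 6.74 ± 1.10 RPKM, and these 3 neighbours in the order of levels differed by less than the spread between pools. Slc6a11 was the lowest, at 2.64 ± 0.515 RPKM, below the other 4 genes in every pool.

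**Figure D1:**
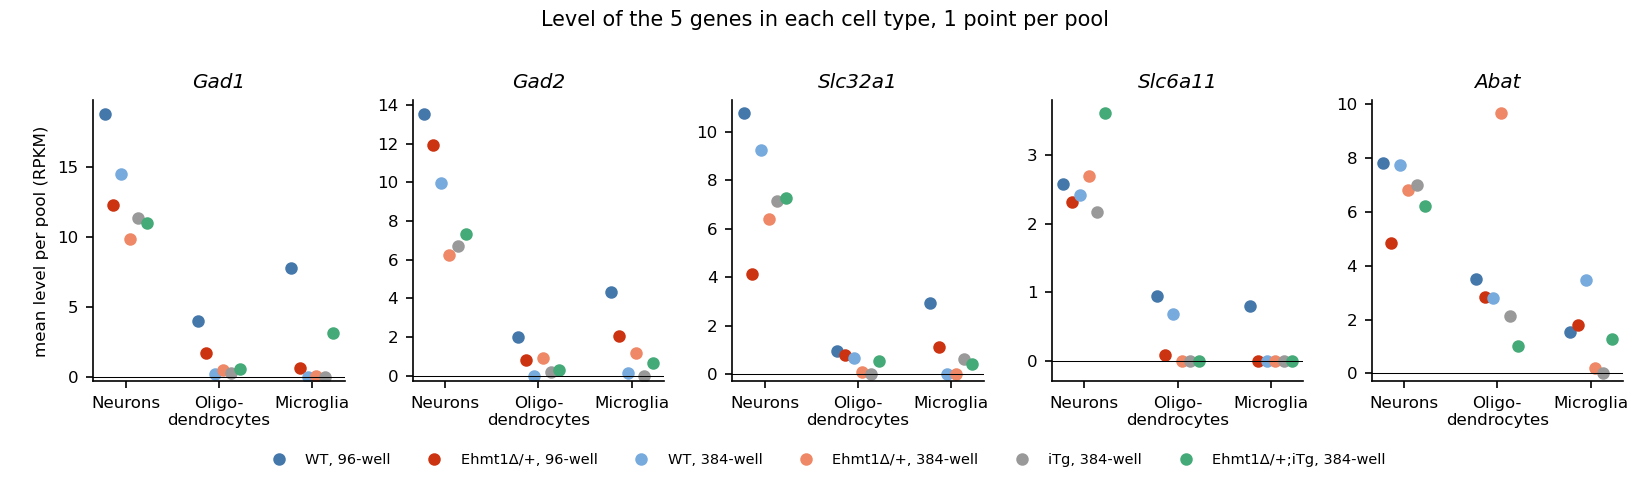
Mean level of each gene per pool (RPKM, linear axis) in neurons, oligodendrocytes and microglia, 1 point for each of the 6 pools. The pools of neurons stand above the glia for Gad1, Gad2, Slc32a1 and Slc6a11, while Abat in oligodendrocytes of the Ehmt1Δ/+ 384-well pool (9.66 RPKM) exceeds the neurons.

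Against oligodendrocytes, the log2 ratio of the neuron mean (RPKM + 0.1) was 3.88 ± 1.22 for Gad1, 4.06 ± 1.48 for Gad2, 3.99 ± 1.38 for Slc32a1 and 3.55 ± 1.65 for Slc6a11 (SD, n = 6 pools), positive in 6 of 6 pools for each; 45.7% of the 22113 genes compared were higher in neurons in all 6 pools. Abat stood apart from the other members, at 1.17 ± 1.01, with 5 of 6 pools higher in neurons. Against microglia the ratios were 4.45 ± 2.53 for Gad1, 3.55 ± 1.82 for Gad2, 3.89 ± 2.03 for Slc32a1, 4.23 ± 1.32 for Slc6a11 and 2.94 ± 1.98 for Abat, again positive in 6 of 6 pools (38.3% of 22435 genes).

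Slc6a11 was found almost wholly in neurons. It was above 0 in 46.6%, 41.1%, 44.6%, 36.9%, 38.9% and 41.4% of neurons in the WT 96-well, Ehmt1Δ/+ 96-well, WT 384-well, Ehmt1Δ/+ 384-well, iTg and Ehmt1Δ/+;iTg pools, and in 0% to 9.59% of oligodendrocytes and 0% to 11.1% of microglia. In total 690 of 1664 neurons, 9 of 397 oligodendrocytes and 4 microglia, all of the WT 96-well pool, held it. Its share in oligodendrocytes was thus below that of Slc17a7 in every pool. No nuclei carried an astrocyte label, and the 15 astrocyte markers summed to 47.3 to 80.5 RPKM over neurons, with 8 to 12 of them detected in at least 10% of neurons of a pool. A large part of the sum was 1 marker, the glutamate transporter gene Slc1a2. It gave 51.6 RPKM of the highest sum (WT 96-well) and 22.4 RPKM of the lowest (iTg). Of these 15 markers, 9, 7, 9, 3, 8 and 5 were detected in a larger share of the neurons with Slc6a11 than of those without it, in the order of pools above, so the markers had no common direction. Aqp4, the water channel of astrocytes, was above 0 in 9.32% of WT 96-well neurons with Slc6a11 and in 6.67% of those without, and in 3.94% and 0.633% of WT 384-well, 1.87% and 0% of iTg and 3.45% and 0% of Ehmt1Δ/+;iTg neurons. In the Ehmt1Δ/+ pools it went the other way, at 1.83% and 4.49% on 96-well and 0.885% and 1.55% on 384-well plates.

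Within neurons, the Gad1 signal lay mostly in a minority of nuclei. Nuclei above 10 RPKM were 64 (25.3%) in the WT 96-well pool, 42 (15.8%) in the Ehmt1Δ/+ 96-well pool, 68 (23.9%) in WT 384-well, 54 (17.6%) in Ehmt1Δ/+ 384-well, 55 (20%) in iTg and 51 (18.2%) in Ehmt1Δ/+;iTg. These nuclei carried 93.1% to 98.5% of the summed Gad1 signal of their pool. The same held for Gad2 (91.3% to 99.1%) and Slc32a1 (89.1% to 98.9%), but not for Slc6a11, where nuclei above 10 RPKM carried 44.2% to 65.1%.

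Above 10 RPKM, Gad1 and Slc17a7 were seldom found in the same nucleus. Both exceeded that level in 8 neurons of the WT 96-well pool (3.16%, 95% Clopper-Pearson interval 1.37% to 6.14%) and in 0 of the Ehmt1Δ/+ 96-well pool (upper bound of the same interval, 1.38%). On 384-well plates they did so in 3 WT neurons (1.05%), 4 Ehmt1Δ/+ neurons (1.31%), 2 iTg neurons (0.727%) and 3 Ehmt1Δ/+;iTg neurons (1.07%). Over all 1664 neurons, 20 held both, 1295 only Slc17a7 and 35 neither, the rest holding only Gad1. Gad2 shared 8 and Slc32a1 shared 3 of the 1664 neurons with Slc17a7 at this level. For Slc6a11 the overlap was larger: among neurons that held it above 10 RPKM, 89 (66.4%) also held Slc17a7 above 10 RPKM. Slc17a7 exceeded that level in 72.98% to 82.4% of all neurons, depending on the pool. The share among neurons with high Slc6a11 was thus below that of neurons in general. Intervals here and below cover counting error only.

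**Figure D2:**
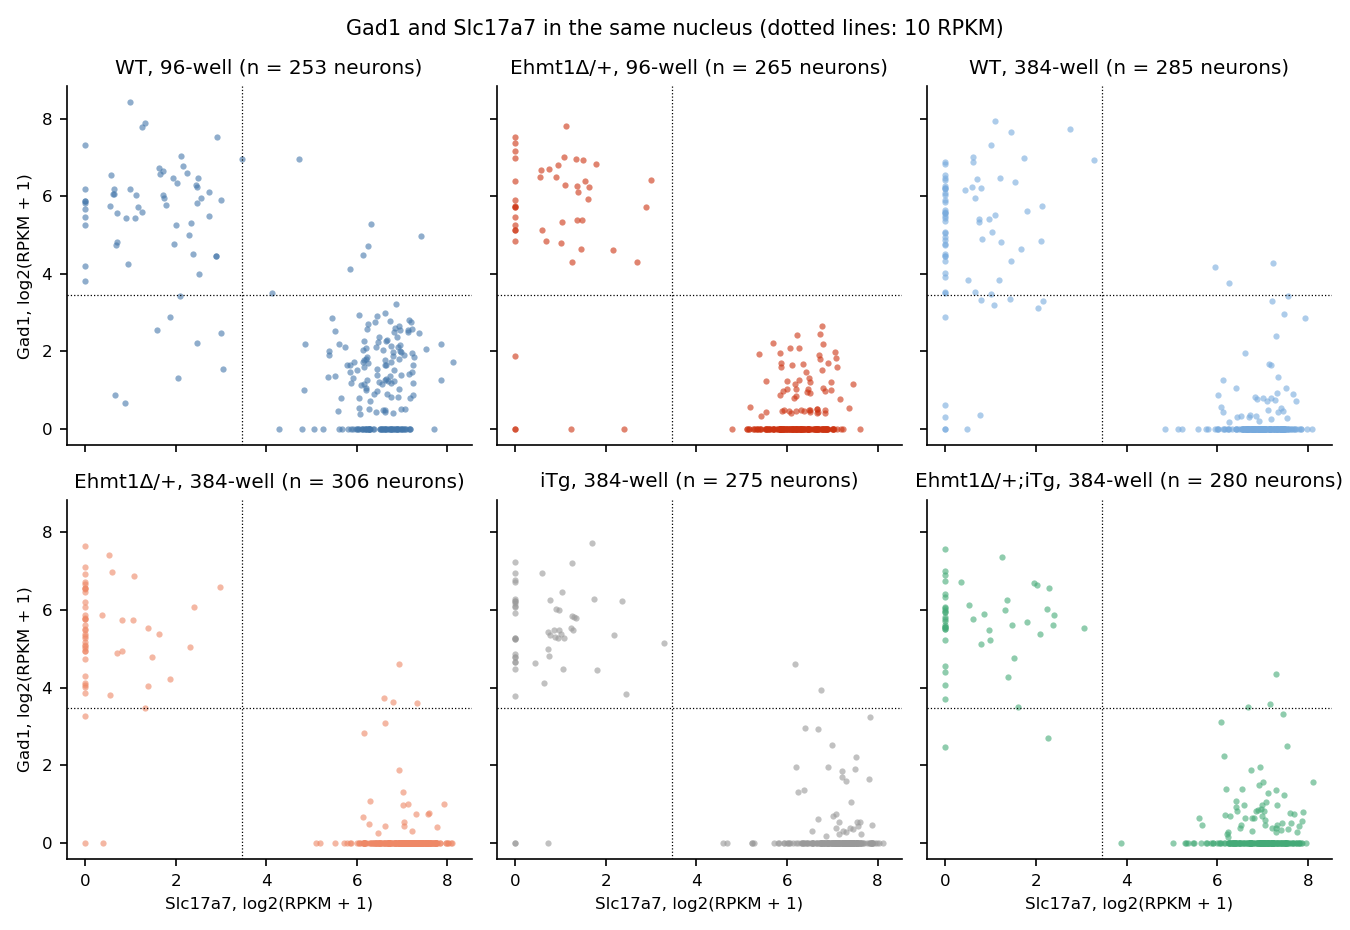
Gad1 (y axis) against Slc17a7 (x axis), both as log2(RPKM + 1), 1 point per neuron, 1 panel per pool, with dotted lines at 10 RPKM. Nuclei gather at high Gad1 with little Slc17a7 or at high Slc17a7 with little Gad1, 20 of 1664 lie in the upper right, and the band of low Gad1 among Slc17a7 nuclei is densest in the WT 96-well pool.

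With any value above 0 counted, co-detection of Gad1 and Slc17a7 was frequent, and so were traces of both genes in glia of the 96-well plates. In the 384-well pools 27.02% of WT, 13.4% of Ehmt1Δ/+, 23.6% of iTg and 29.3% of Ehmt1Δ/+;iTg neurons held both, against 69.6% of WT and 33.96% of Ehmt1Δ/+ neurons in the 96-well pools. Oligodendrocytes, which should lack both genes, held both in 42.5% (WT) and 12.7% (Ehmt1Δ/+) of nuclei on 96-well plates and in 1.41% to 7.46% of nuclei on 384-well plates. Low Gad1 (above 0, at most 5 RPKM) was present in 42.3%, 23.4%, 12.6%, 5.56%, 10.5% and 19.3% of neurons, in the order of pools used above. In microglia Gad1 was above 0 in 24 of 36 and 14 of 32 nuclei of the 96-well WT and Ehmt1Δ/+ pools, and in 0 of 16, 1 of 19, 0 of 20 and 6 of 23 nuclei of the 384-well pools. On 96-well plates WT thus had the larger share in neurons, oligodendrocytes and microglia alike, and the part of these traces in the neuron values was not tested.

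With each nucleus thinned to the same read total, WT remained highest and Ehmt1Δ/+ lower in both plate formats. At 298762 reads, 75.8% of WT and 38.4% of Ehmt1Δ/+ neurons of the 96-well plates held Gad1 (73.5% and 39.6% before thinning), beside 54.7% and 28.7% of oligodendrocytes. At 48585 reads, Gad1 was present in 30.3%, 20.3%, 24.5% and 24.9% of the WT, Ehmt1Δ/+, iTg and Ehmt1Δ/+;iTg neurons of the 384-well plates (40%, 24.5%, 31.6% and 38.6% before thinning). Nuclei below these totals were left out: 27 WT and 43 Ehmt1Δ/+ neurons of the 96-well plates, and 1 neuron (Ehmt1Δ/+;iTg) of the 384-well plates.

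Gad1, Gad2 and Slc32a1 were high mostly in the same nuclei. Of the neurons with at least 1 of the 3 above 10 RPKM, 70.9% had all 3 above it, from 56.8% in the Ehmt1Δ/+ 96-well pool to 78.2% in iTg, and 23 of the neurons above 10 RPKM of Gad1 had Gad2 at 0. Across the neurons of a pool, the Pearson correlation of log2(RPKM + 1) was 0.75 to 0.92 between Gad1 and Gad2, 0.82 to 0.93 between Gad1 and Slc32a1 and 0.79 to 0.91 between Gad2 and Slc32a1 (6 pools, 1664 neurons, nuclei of a pool sharing library preparation and depth range). Abat followed them less tightly, at 0.53 to 0.66. Slc6a11 was only weakly correlated with the other 4, between -0.03 and 0.21. Against Slc17a7 the correlation was -0.90 to -0.77 for Gad1, -0.71 to -0.61 for Abat and -0.21 to 0.05 for Slc6a11.

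Each gene was compared with 25101 other genes detected in at least 5% of the neurons of every pool. Predicted and clone-named genes, small RNAs, mitochondrial genes and pseudogenes were then passed over in the ranking. The ranked genes most like Gad1 by the mean correlation over pools included Slc32a1 (0.88), Gad2 (0.87), Dlx6os1 (0.86) and Dlx6 (0.82). Dlx6os1 and Dlx6 belong to the Dlx5/6 locus, whose homeodomain factors are known from interneuron development. Gad2 and Slc32a1 had each other, Gad1, Dlx6os1 (0.85 and 0.84) and Dlx6 (0.81 and 0.82) among their nearest patterns. Abat was most like Slc32a1 (0.61), Gad2 (0.60), Gad1 (0.60) and Rbms3 (0.59). Slc6a11 had no close pattern among the ranked genes, where its nearest were Fxyd6 (0.32), Celf4 (0.31), Sema5b (0.30), Ptpru (0.30) and Eln (0.28).

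To describe the levels within inhibitory neurons, neurons were put in an inhibitory-marker class where the mean log2(RPKM + 1) of 28 inhibitory markers exceeded that of 11 excitatory markers. None of the 5 genes was among the markers. The excitatory markers included Slc17a7 (correlation with Gad1 -0.90 to -0.77), and the inhibitory ones Dlx6os1 and Dlx6 (means of 0.86 and 0.82). Class entry is thus not independent of the Gad1 level. Of the 23 inhibitory markers tested, 22 had lower values in Ehmt1Δ/+ than in WT neurons of both plate formats (35% of all genes tested did). A neuron whose marker levels fell would leave the class, so the class cannot tell fewer inhibitory neurons from less marker RNA in each. On 96-well plates the class held 51 WT neurons (20.2% of the pool) and 43 Ehmt1Δ/+ neurons (16.2%). On 384-well plates it held 67 WT (23.5%), 47 Ehmt1Δ/+ (15.4%), 49 iTg (17.8%) and 44 Ehmt1Δ/+;iTg neurons (15.7%). The 3 pools with the Ehmt1 deletion lay between 15.4% and 16.2% and the 3 without it between 17.8% and 23.5%. The 95% Clopper-Pearson intervals overlapped in every pair, 15.4% to 25.6% against 12% to 21.2% on 96-well plates and 18.7% to 28.9% against 11.5% to 19.9% for WT and Ehmt1Δ/+ of the 384-well plates. Between 1.82% and 7.11% of neurons of a pool lay within 0.5 of the limit.

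Inside the class, mean Gad1 was close in WT and Ehmt1Δ/+ of a plate format. It was 77.1 RPKM in WT and 73.6 in Ehmt1Δ/+ on 96-well plates. On 384-well plates it was 57.1 in WT, 57.6 in Ehmt1Δ/+, 59.3 in iTg and 60.9 in Ehmt1Δ/+;iTg. In the other neurons it was 4.07, 0.412, 1.43, 1.22, 0.925 and 1.71 RPKM. Of the mean Gad1 level of all WT 96-well neurons, 15.5 RPKM came from the class and 3.25 from other neurons, against 11.9 and 0.345 in Ehmt1Δ/+. On 384-well plates the parts were 13.4 and 1.10 in WT and 8.85 and 1.03 in Ehmt1Δ/+.

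Slc32a1 and Gad2 behaved differently in the Ehmt1Δ/+ 96-well pool. Slc32a1 in the class was 46.3 RPKM in WT and 22.5 in Ehmt1Δ/+ on 96-well plates, but 36.8, 38.3, 38.4 and 41.9 in the 4 pools of the 384-well plates. Class neurons above 10 RPKM of Slc32a1 were 62.8% in the Ehmt1Δ/+ 96-well pool and 88.1% to 93.9% in the other 5 pools. Gad2 was highest in that same pool, at 71.02 RPKM, against 53.4 in its WT partner and 34.2 to 40.9 in the 384-well pools. The class neurons of this pool thus held less Slc32a1 and more Gad2 than those of every other pool, with Gad1 in the range of the others.

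Abat in the class was 19.4, 15.02, 21.2, 23.2, 23.6 and 18.3 RPKM in the order of pools, and 2.89 to 4.88 RPKM in the other neurons, where it was still present in 60.6% to 81.7% of nuclei. Slc6a11 was 3.79, 2.38, 2.51, 3.47, 2.49 and 5.60 RPKM in the class and 2.29, 2.31, 2.40, 2.56, 2.11 and 3.25 RPKM outside it. Its mean was thus higher in the class in each of the 6 pools, least so in the Ehmt1Δ/+ 96-well pool and most in Ehmt1Δ/+;iTg. These gaps were smaller than the spread over class nuclei (SD 4.04 RPKM in the former pool and 7.81 RPKM in the latter). On 384-well plates the share of nuclei with Slc6a11 was lower in the class for WT (43.3% against 44.95%) and Ehmt1Δ/+ (29.8% against 38.2%). In the other pools this share was higher in the class.

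**Figure D3:**
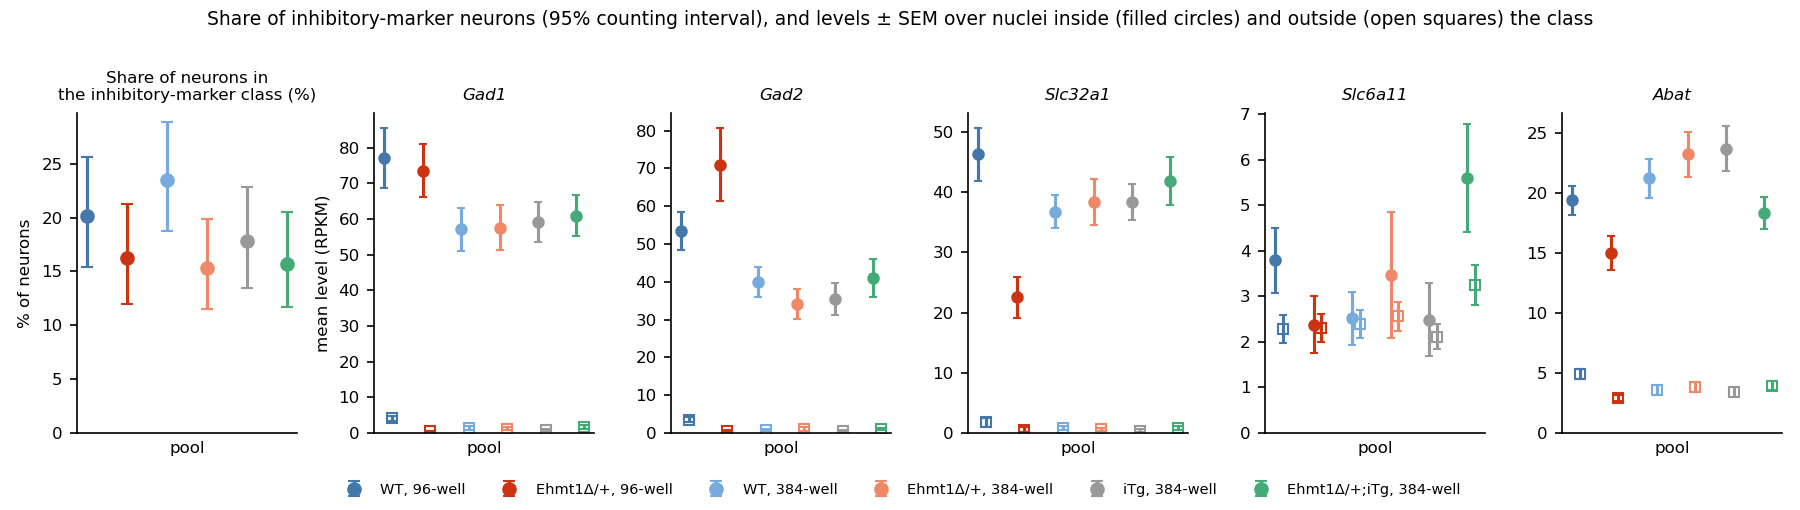
Left, share of neurons in the inhibitory-marker class per pool (%, bars: 95% Clopper-Pearson interval); right, mean level of each gene (RPKM, bars: SEM over nuclei) inside the class (filled circles) and in other neurons (open squares). Gad1 in the class lies at 57.1 to 77.1 RPKM, while Slc32a1 is lowest (22.5 RPKM) and Gad2 highest (71.02 RPKM) in the Ehmt1Δ/+ 96-well pool.

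The comparison of Ehmt1Δ/+ with WT over all neurons asked whether loss of 1 Ehmt1 copy changed the GABA genes. In pool means, fewer nuclei of a type and less RNA per nucleus cannot be told apart, and the class values above, which rest on marker levels, do not separate them either. On 96-well plates Gad1 was 18.8 RPKM in WT and 12.3 in Ehmt1Δ/+, and on 384-well plates 14.5 and 9.88. Both Ehmt1Δ/+ pools thus lay below both WT pools, with ratios of 0.655 and 0.683.

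Gad2 was 13.6 RPKM in WT and 11.96 in Ehmt1Δ/+ on 96-well plates, and 9.98 and 6.22 on 384-well plates. The genotypes overlapped for Gad2, since the Ehmt1Δ/+ 96-well pool stood above the WT 384-well pool. Slc32a1 was 10.8 and 4.12 RPKM on 96-well plates (ratio 0.388) and 9.26 and 6.41 on 384-well plates (ratio 0.696), with no overlap of the genotypes. Abat, the enzyme of GABA breakdown, was 7.80 and 4.86 RPKM on 96-well plates and 7.74 and 6.80 on 384-well plates, again with no overlap. Slc6a11 was 2.59 and 2.32, then 2.43 and 2.70 RPKM, lower in 1 plate format and higher in the other.

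**Figure D4:**
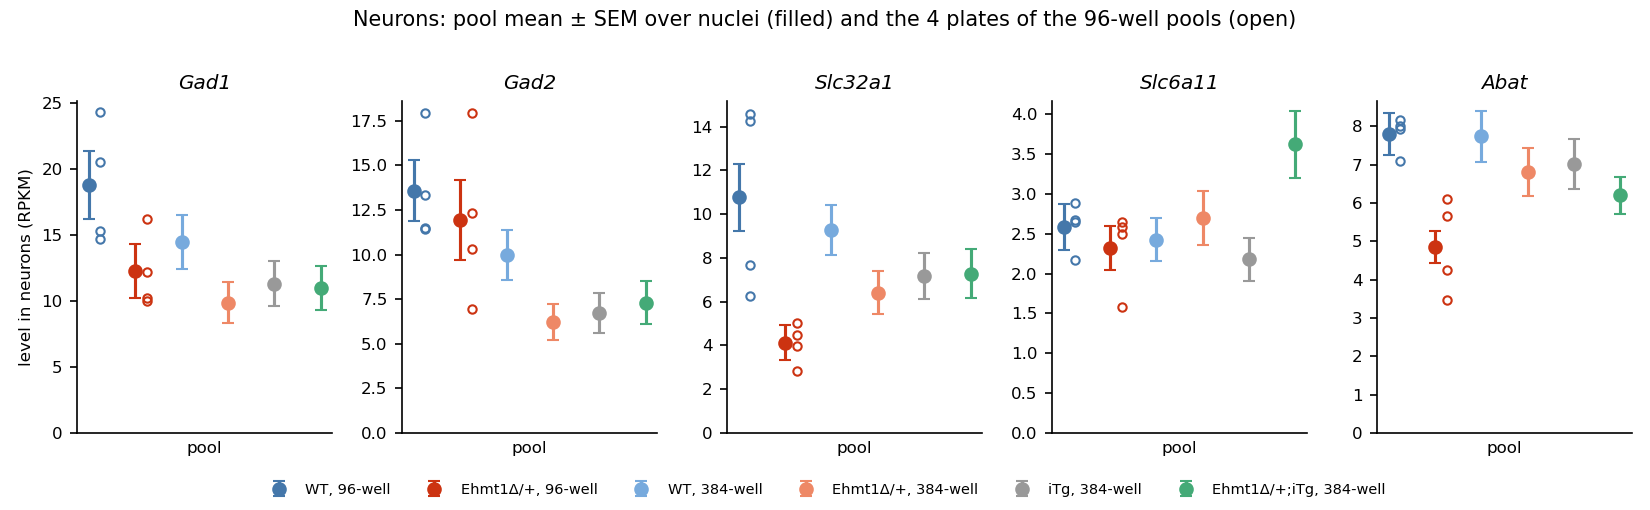
Level of each gene in neurons per pool (RPKM; filled points: pool mean, bars: SEM over nuclei; open circles: the 4 plates of each 96-well pool). Gad1, Slc32a1 and Abat are lower in Ehmt1Δ/+ than in WT in both plate formats with no overlap of the pool means, though single plates overlap for Gad1, and Slc6a11 is highest in Ehmt1Δ/+;iTg (3.62 RPKM).

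The log2 ratio of Ehmt1Δ/+ to WT over both plate formats was -0.58 ± 0.10 for Gad1 (limma, SE, unadjusted p = 0.00667, Benjamini-Hochberg adjusted p = 0.461) and -0.94 ± 0.24 for Slc32a1 (unadjusted p = 0.0225, adjusted p = 0.469, limma). It was -0.43 ± 0.17 for Gad2 (adjusted p = 0.522), -0.43 ± 0.16 for Abat (adjusted p = 0.522) and -0.00095 ± 0.13 for Slc6a11 (adjusted p = 0.999) in the same limma fit. No gene of the 23853 tested passed an adjusted p of 0.05, so none of these differences was called. Of the 5 genes, 4 were lower in both plate formats, which 35% of all genes tested were, and 3 had both Ehmt1Δ/+ pools below both WT pools, against 8.69% of all genes. At an unadjusted p of 0.05, 2 of the 5 were lower (6.99% of all genes) and 0 higher (3.19%). On 96-well plates 3 of the 5 (Gad1, Slc32a1 and Abat) were lower by at least 1.5-fold, against 5.68% of all genes, and on 384-well plates 1 (Gad2), against 4.41%. With log2 values centred on the median of each pool, 1161 genes were lower and 1183 higher at that p, against 1667 and 761 as deposited.

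The 96-well pools were each spread over 4 plates, which are parts of 1 pool and not replicates. Slc32a1 was 6.27 to 14.6 RPKM over the WT plates and 2.82 to 5.01 over the Ehmt1Δ/+ plates, and Abat 7.09 to 8.16 and 3.46 to 6.10 RPKM, with no overlap for either gene. Gad1 ranged over 14.7 to 24.3 RPKM in WT plates and 9.97 to 16.2 in Ehmt1Δ/+ plates, and Gad2 over 11.4 to 18.0 and 6.95 to 17.9, so these plates overlapped.

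Within the inhibitory-marker class, the log2 ratio was -0.03 ± 0.21 for Gad1 (adjusted p = 0.995), 0.09 ± 0.27 for Gad2 (adjusted p = 0.989), -0.49 ± 0.36 for Slc32a1 (adjusted p = 0.901), -0.12 ± 0.25 for Abat (adjusted p = 0.984) and -0.10 ± 0.36 for Slc6a11 (adjusted p = 0.990; limma, SE). Inside the class 0 of the 5 genes were lower in both plate formats, against 28.8% of the 23460 genes tested there, and 0 were lower at an unadjusted p of 0.05 (3.95%). For Slc32a1 the plate formats gave -1.04 and 0.06. In neurons outside the class the ratio of Gad1 was -3.03 on 96-well plates and -0.22 on 384-well plates (-1.62 ± 0.75 over both, adjusted p = 0.612, limma), where the WT 96-well pool was the one with traces of neuronal genes in its glia, and their part in the result was not tested. Of the 4 members tested outside the class, 1 (Gad1) was lower in both formats (33.8% of 23777 genes), and 0 were lower at an unadjusted p of 0.05 (6.25%).

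The other genes of GABA and glutamate handling showed no common direction. Of 18 such genes, 12 were tested, of which 6 were lower in both plate formats, as 35% of all genes tested were, and 3 higher in both. At an unadjusted p of 0.05 (limma), 1 was lower (6.99% of all genes) and 0 higher (3.19%). The median log2 ratio was -0.08, near the -0.03 of all genes tested. Among those with the highest means, the glutaminase gene Gls2 was 16.1 and 17.7 RPKM in WT and Ehmt1Δ/+ neurons of the 96-well pools, then 23.96 and 24.7 RPKM in those of the 384-well pools. Slc1a2, a glutamate transporter, was 51.6 and 49.8 RPKM, then 23.97 and 25.96. The glutamine transporters Slc38a2 (24.9 and 23.7, then 23.3 and 25.1 RPKM) and Slc38a1 (19.8 and 14.1, then 14.1 and 13.2 RPKM) were also among them.

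Markers of inhibitory neurons, none of them among the 5 genes, mostly had lower values in Ehmt1Δ/+. Of 28 markers, 23 were tested, of which 22 were lower in both plate formats, as 35% of all genes tested were, and 0 higher. The median log2 ratio was -0.56 (-0.52 on 96-well plates, -0.66 on 384-well plates) against -0.03 for all genes. At an unadjusted p of 0.05, 15 were lower (6.99% of all genes) and 0 higher (3.19%), and none passed the adjusted threshold. The neuropeptide gene Sst was 111.3 and 19.4 RPKM on 96-well plates and 88.6 and 34.4 on 384-well plates, and the neuropeptide gene Npy 16.7 and 8.62, then 24.9 and 15.8. Adarb2, a marker of interneurons from the caudal ganglionic eminence, was 19.5 and 12.02 RPKM, then 11.4 and 6.94. Kcnc2, Lamp5 and Cnr1, the others among the 6 highest, had log2 ratios of -0.07, 0.08 and -0.23. The 11 excitatory markers had a median log2 ratio of 0.02, and the list of inhibitory markers was chosen with earlier results of these samples known, so its direction is not independent evidence.

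**Figure D5:**
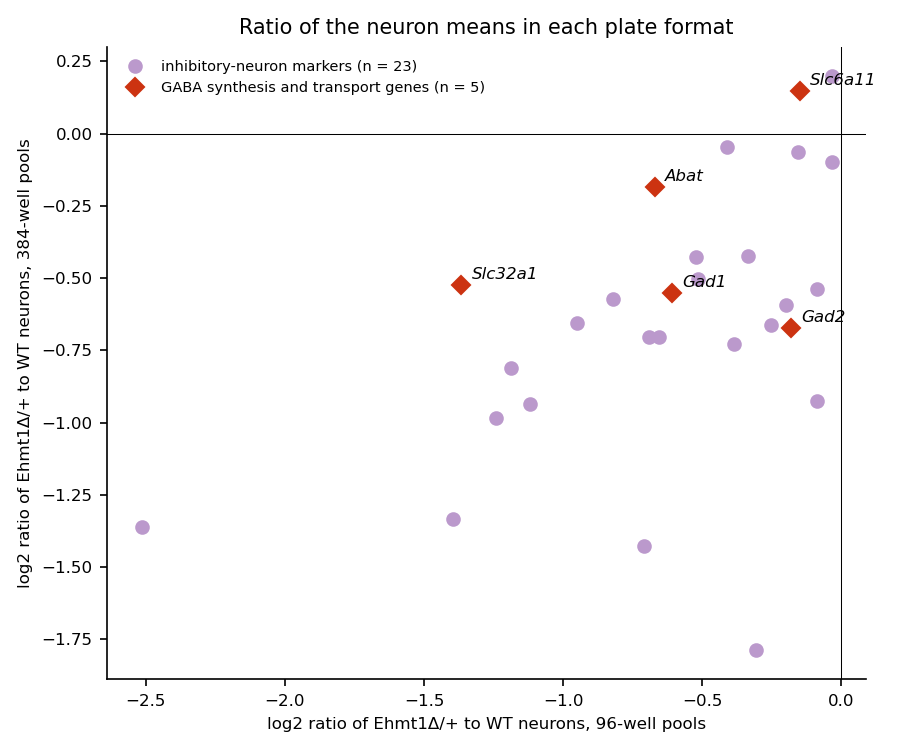
Log2 ratio of Ehmt1Δ/+ to WT neuron means (RPKM + 0.1) in the 96-well pools (x axis) and the 384-well pools (y axis) for the 5 GABA genes (diamonds) and 23 inhibitory-neuron markers (circles). Gad1, Gad2, Slc32a1 and Abat lie in the lower left with 22 of the 23 markers, Slc6a11 lies near 0.

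On 384-well plates the iTg pools gave 2 further levels, with 1 pool per genotype and so no test. Gad1 was 11.3 RPKM in iTg and 11.01 in Ehmt1Δ/+;iTg, between WT (14.5) and Ehmt1Δ/+ (9.88). Gad2 was 6.72 and 7.31 RPKM, and Slc32a1 7.15 and 7.27 RPKM, again between WT and Ehmt1Δ/+. Abat was 7.01 and 6.21 RPKM, the latter below Ehmt1Δ/+ (6.80). Slc6a11 was 2.18 RPKM in iTg and 3.62 in Ehmt1Δ/+;iTg, a ratio of 1.63, but 24.8% of all genes tested were higher by at least 1.5-fold between these pools, and the median log2 ratio over all genes was 0.21. Against WT, none of the 5 genes differed by 1.5-fold in either iTg pool; 7.47% of all genes were lower and 1.06% higher by that much in iTg, and 4.68% and 16.8% in Ehmt1Δ/+;iTg.

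Over the 3 pairs of pools that differ in the Ehmt1 deletion, the log2 ratio of carriers to non-carriers was -0.40 ± 0.17 for Gad1 (adjusted p = 0.792), -0.62 ± 0.29 for Slc32a1 (adjusted p = 0.792), -0.34 ± 0.16 for Abat (adjusted p = 0.792), -0.24 ± 0.19 for Gad2 (adjusted p = 0.794) and 0.24 ± 0.20 for Slc6a11 (adjusted p = 0.798; limma, SE, 6 pools). Gad1 and Abat were lower in carriers in 3 of 3 pairs, which 13.9% of all genes were. In the iTg pair the difference was small for the 4 genes other than Slc6a11, with log2 ratios of -0.04 for Gad1, 0.12 for Gad2, 0.02 for Slc32a1 and -0.17 for Abat. This comparison shares its first 2 pairs with that of Ehmt1Δ/+ and WT.

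In glia the values were too sparse for most of the 5 genes. In oligodendrocytes Gad2 and Abat passed the filter and in microglia Abat alone. Gad2 passed it through Ehmt1Δ/+ only, above 0 in 22.5% (96-well) and 10.9% (384-well) of oligodendrocytes, against 28.8% and 0% in WT. Abat in microglia passed through WT only (33.3% and 12.5%, against 18.8% and 5.26% in Ehmt1Δ/+). The tests of these 2, with the cell type difference of Gad2 below, thus decide nothing about genotype. None of the members passed an adjusted p of 0.05, as did 0 of all 12832 and 13686 genes. At an unadjusted p of 0.05, 3.04% of genes were lower and 1.68% higher in oligodendrocytes, and 1.03% and 0.899% in microglia, with none of the tested members among them. Abat in oligodendrocytes was 3.50, 2.82, 2.81, 9.66, 2.12 and 1.01 RPKM in the order of pools, highest in Ehmt1Δ/+ 384-well, where 13 of 46 nuclei held it. Its log2 ratio of Ehmt1Δ/+ to WT was 0.72 ± 0.60 (adjusted p = 0.881, limma). The ratio in neurons minus that in oligodendrocytes was -1.15 ± 0.48 for Abat (adjusted p = 0.892) and -1.52 ± 1.32 for Gad2 (adjusted p = 0.896, limma), so no difference between the cell types was called; 0 of 12396 genes passed, and 4.36% had an unadjusted p under 0.05. Abat in microglia was 1.53, 1.80, 3.45, 0.198, 0 and 1.29 RPKM, from 12, 6, 2, 1, 0 and 2 nuclei.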

How the data were processed

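Nuclei were isolated, sorted and sequenced by the authors, who trimmed reads (Fastq-mcf), mapped them to mm10 (HISAT2 2.0.4), counted them per gene (featureCounts, Subread 1.5.0, default parameters, GENCODE) and deposited RPKM values per nucleus in 2 tables, which were used as deposited. All 2207 columns were mapped to labelled samples. Gene symbols were matched for 52403 of 52636 rows. Read totals per nucleus were recovered by taking the most frequent value of RPKM times exon length in a nucleus as 1 read. By these totals, 31.5% and 25.3% of values in the 96-well and 384-well tables were not whole reads within 0.001. They otherwise served for depth, thinning and the alternative with means weighted by read total.

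For each gene the mean RPKM of a pool was taken within a cell type label, and log2(mean + 0.1) was fitted with limma 3.58.1 in R 4.3.3 over all genes above 0 in at least 10% of nuclei of 1 genotype in both plate formats, with plate format as a block and Benjamini-Hochberg adjustment; tests were 2-sided. The pools of a plate format deviated together from their genotype means (Pearson r = 0.901 across 23853 genes, which are not independent; 2 pairs). With plate format as a block, p-values rest on how far the Ehmt1Δ/+ to WT ratio differed between the plate formats. For carriers they rest on how far it differed between pairs of pools. In both, limma shares variance over genes. They do not measure the spread between mice, and the differences may be technical. Neurons were compared with glia without a test, since the labels rest on the same values. Fits were tested on simulated pools. Named were the 5 genes, Slc17a7, the 6 highest genes of the GABA and glutamate handling list and of the inhibitory markers, and the 5 genes most correlated with each member; other genes were named as context after their values were seen, and some items under this rule are not reported here. The members, lists and limits were chosen with earlier results of these data known. Other steps ran in Python 3.11.15 (pandas 2.3.3, SciPy 1.17.1).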

Additional observations from a re-analysis of the deposited data

Results flagged for a closer look

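Some of the 5 genes had Ehmt1Δ/+ to WT ratios of opposite sign in the 96-well and the 384-well plates; with 1 pool per genotype and format, these differences were not tested. The log2 ratios in the 2 formats were -0.15 and 0.15 for Slc6a11 in all neurons. Inside the inhibitory-marker class they were -0.068 and 0.013 for Gad1, 0.41 and -0.22 for Gad2, -1.04 and 0.059 for Slc32a1, -0.65 and 0.45 for Slc6a11, and -0.37 and 0.13 for Abat. In the other neurons they were -2.55 and 0.53 for Gad2 and -0.73 and 0.086 for Abat. In oligodendrocytes they were -1.18 and 3.36 for Gad2, which was at 0 in WT oligodendrocytes of the 384-well plates, and -0.30 and 1.75 for Abat. In microglia they were 0.22 and -3.57 for Abat, from 1 to 12 nuclei with the gene.

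The deletion also went with opposite signs in the 384-well pairs labelled as without and with CamKII-CreER, a label that the study's text does not share: -0.67 and 0.12 for Gad2, and -0.52 and 0.023 for Slc32a1 (log2 ratio of carriers to non-carriers, not tested). Among the 4 plates of the Ehmt1Δ/+ 96-well pool, the Slc6a11 mean of 1 plate (1.58 RPKM) lay far below the others, the only such case in 10 groups of plates looked at, and chance gives about 1 in 20.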

How the results depend on the processing

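No alternative brought any of the 5 genes past an adjusted p of 0.05, and in Ehmt1Δ/+ against WT neurons the count of all genes that passed stayed at 0. For carriers against non-carriers, 1 gene, none of the 5, passed without the WT and Ehmt1Δ/+ pair of the 384-well plates, and with a trend in the prior variance 2 genes, none of the 5, passed in oligodendrocytes. In neurons, Gad1 and Abat were lower in Ehmt1Δ/+ under all 12 alternatives (log2 ratios -1.62 to -0.03 and -0.67 to -0.12) and Slc32a1 under all 11 that gave a value (-2.01 to -0.49), the 12th being void because Slc32a1 missed the filter outside the class. Dropping the filter, dropping the block or adding the variance trend cannot change a ratio, so these alternatives say nothing about its sign. A changed pseudocount cannot change the sign within a plate format, and leaving out a plate format gives the ratio of the other format alone. Both formats were negative for Gad1, Slc32a1 and Abat, so these alternatives could not turn their sign either. Inside the class the negative values averaged formats of opposite sign: -0.068 and 0.013 for Gad1, -1.04 and 0.059 for Slc32a1, and -0.37 and 0.13 for Abat. Leaving out the 10% of neurons with the highest value of each gene gave -1.42 for Gad1, -1.37 for Gad2 and -2.01 for Slc32a1. Neurons above 10 RPKM of Gad1 were 25.3% and 23.9% in WT and 15.8% and 17.6% in Ehmt1Δ/+ (96-well and 384-well). Gad2 and Slc32a1 had the same order. The cut thus removed a larger part of the high nuclei in Ehmt1Δ/+, so these ratios are not a separate check. Gad2 turned to 0.093 inside the class. Slc6a11 changed sign with means weighted by read total (0.021), centring on the median (0.060), outside the class (0.053) and without the 96-well pools (range with either format left out -0.15 to 0.15). Without the plate format as a block the ratios were the same and the adjusted p was 0.999991 for each (limma), 48 genes being lower and 30 higher at an unadjusted p of 0.05 against 1667 and 761. The unadjusted p was then 0.170 for Gad1 and 0.0637 for Slc32a1 (limma).

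In glia, leaving out a plate format moved the log2 ratio over -1.18 to 3.36 for Gad2 and -0.30 to 1.75 for Abat in oligodendrocytes, and over -3.57 to 0.22 for Abat in microglia. The carrier ratio of Slc6a11 ranged over -0.00095 to 0.43 with 1 pair left out. For neurons against oligodendrocytes, a pseudocount of 1 gave 2.49 for Slc32a1 and 1.55 for Slc6a11, and 0.01 gave 5.37 for Slc6a11; against microglia Slc6a11 was 1.71 and 6.97. Neurons with Gad1 and Slc17a7 both above 1, 5, 10 and 20 RPKM were 19.5%, 3.55%, 1.20% and 0.421%. The causes were not tested. With 2 pools per genotype and glia of the 384-well plates far shallower than neurons, small changes were not detectable.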
